A study of Homo sapiens with 6 samples.

Results

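The genes described here are 10 inducible inhibitors of the MAP kinase pathway, measured in SH-SY5Y cells after 1 h with free bilirubin or with its solvent. They are the dual-specificity phosphatase genes DUSP1, DUSP2, DUSP4, DUSP5, DUSP6 and DUSP7, the Sprouty genes SPRY1, SPRY2 and SPRY4, and the Spred gene SPRED2. The list of names uses no measured value, although it was drawn up with earlier results of these data known, and every probe set annotated with 1 gene symbol that is one of these names was used. This gave 17 probe sets of the 22215 tested, with all 10 genes represented among the 11963 named by such probe sets. DUSP6 and SPRED2 have 3 probe sets each, DUSP1, DUSP4 and DUSP7 have 2 each, and the other genes have 1. Bf 140 nM cells (3 arrays) were treated for 1 h with medium containing unconjugated bilirubin at a free concentration of 140 nM, Bf being the part not bound to albumin. DMSO 0.6% cells (3 arrays) received the solvent alone for 1 h. In both groups the serum-containing growth medium was replaced when treatment began, separate flasks were used, and the bilirubin had been dissolved in DMSO as well. SH-SY5Y is a human neuroblastoma line, a model of neuronal cells and not of normal neurons. Of 11 measured markers of noradrenergic neuroblastoma, 9 lay above the array median on all 6 arrays and TH lay below it on all 6. Of 9 markers of other cell types, 8 lay below the median and COL1A1 above it. Both groups carry replicate numbers 1, 2 and 3.

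Growth factor receptors signal through RAS, RAF, MEK and ERK, and the kinase ERK then enters the nucleus and switches on genes within minutes. Some of these genes encode brakes on the same pathway. Dual-specificity phosphatases remove phosphate from both the threonine and the tyrosine of active MAP kinases, while Sprouty and Spred proteins act upstream and limit activation of RAS and RAF. Because ERK activity drives their transcription, the mRNA levels of several of them, DUSP6 and SPRY4 in particular, are widely read as a gauge of ERK signalling. In neuronal cells they respond to neurotrophins, depolarization and stress.

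Values are on the generalized log2 scale of variance-stabilizing normalization (VSN), on which a difference of 1 is a 2-fold change for bright probe sets and understates the change near background. Levels of different probe sets do not rank the abundance of their mRNAs, so differences are taken within a probe set across arrays, and level serves only to find probe sets of like brightness, the brightest of a gene, or those near background. In a bulk sample, fewer cells of one kind and less RNA per cell cannot be told apart. The array medians lay between 7.73 and 7.97. The replicate 3 arrays stood apart from the rest. The actin control is read by probe sets near both ends of its mRNA, and the gap between the 3′ and the 5′ value was 1.49 log2 on the Bf 140 nM array and 1.90 log2 on the DMSO 0.6% array of replicate 3, where the other 4 arrays had gaps of 0.10 to 0.50 log2. The hybridization control BioC, added to the labelled samples, measured 8.08, 9.74 and 10.26 in Bf 140 nM replicates 1, 2 and 3, and 8.19, 9.38 and 10.30 in DMSO 0.6%. The GAPDH control, also read at both ends, had gaps of 1.03 log2 on the Bf 140 nM and 1.15 log2 on the DMSO 0.6% array of replicate 3. On the other 4 arrays its gap was 0.20 to 0.25 log2. The replicate number was therefore followed through all comparisons, and what lay behind the gaps was not tested.

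To examine the early response to bilirubin, Bf 140 nM and DMSO 0.6% were compared with limma across all probe sets, with a Benjamini-Hochberg adjusted p under 0.10 as threshold. No member passed: Bf 140 nM was higher on 0 and lower on 0 of the 17, where 0% of all probe sets were called in either direction. Their differences ranged from -0.13 log2 on a DUSP4 probe set to 0.11 log2 on a SPRED2 probe set, with a median of -0.00 log2, against 0.01 log2 for all probe sets. Regardless of sign, the differences had a median of 0.05 log2 in the members and 0.05 log2 overall. None reached an unadjusted limma p under 0.05 (0 of 17, against 0.099% of all probe sets), and the same was true with the replicate number as a block (0 of 17, against 1.22%). The groups overlapped on all 17 probe sets, whereas 2.06% of all probe sets had Bf 140 nM wholly above DMSO 0.6% and 0.59% wholly below. Neither this overlap nor the permutation tests given next take account of the replicate number. Spread between replicate numbers can therefore hide a treatment difference in both. Exact two-sided permutation tests of the single probe sets gave p values from 0.5 to 1.0, and 0.1 is the smallest that 3 arrays against 3 allow.

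**Figure D1:**
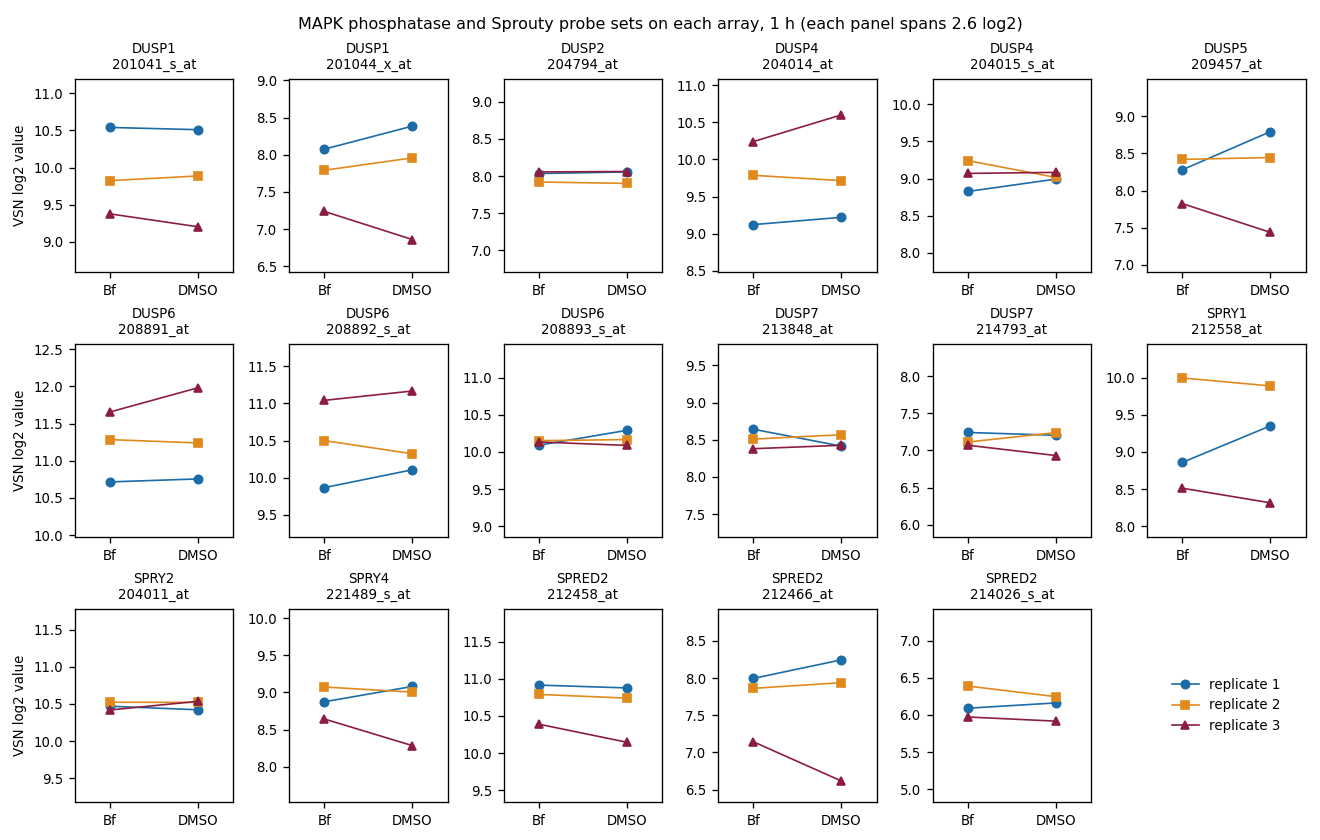
VSN log2 values (vertical axes, of equal span in each panel) of the 17 probe sets in Bf 140 nM (left) and DMSO 0.6% (right), with 1 point per array and a line joining arrays of the same replicate number. The lines of DUSP1, DUSP4 (204014_at), DUSP6 (208891_at and 208892_s_at) and SPRY1 are separated by replicate number and cross little between treatments, while those of DUSP2 and SPRY2 lie together.

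Among the nuclear phosphatases, DUSP1 (MKP-1), an immediate early gene that inactivates p38, JNK and ERK, had 10.54, 9.82 and 9.38 on probe set 201041_s_at in Bf 140 nM replicates 1, 2 and 3, and 10.51, 9.89 and 9.20 in DMSO 0.6%. Within a replicate number the treatments lay close together, at most 0.17 log2 apart, whereas the replicate numbers differed from each other by up to 1.23 log2 and the groups overlapped. Its second probe set, 201044_x_at, whose suffix marks probes that may also match other sequences, had 8.08, 7.79 and 7.24 in Bf 140 nM and 8.39, 7.96 and 6.86 in DMSO 0.6%. Replicate 1 was highest and replicate 3 lowest on both. The differences between treatments were 0.05 log2 (95% confidence interval -0.95 to 1.04) and -0.03 log2 (-1.05 to 0.98), with an adjusted p = 1.00 from limma for each.

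DUSP2 (PAC-1), a nuclear phosphatase best known in activated lymphocytes, had 8.03, 7.92 and 8.06 in Bf 140 nM and 8.06, 7.90 and 8.06 in DMSO 0.6%. The 6 arrays lay close together, and the difference was -0.00 log2 (-0.22 to 0.22). DUSP4 (MKP-2), a nuclear phosphatase of ERK and JNK, had 9.12, 9.79 and 10.24 on 204014_at in Bf 140 nM and 9.22, 9.71 and 10.60 in DMSO 0.6%. Here replicate 3 was highest and replicate 1 lowest in both groups, opposite to DUSP1, and the treatments differed by -0.13 log2 (-1.14 to 0.89). The other DUSP4 probe set, 204015_s_at, had 8.83, 9.24 and 9.07 in Bf 140 nM and 8.99, 9.02 and 9.08 in DMSO 0.6%, with no common order of replicate numbers and a difference of 0.02 log2 (-0.28 to 0.31). DUSP5, a nuclear phosphatase specific for ERK, had 8.28, 8.42 and 7.83 in Bf 140 nM and 8.79, 8.44 and 7.44 in DMSO 0.6%. Replicate 3 was lowest in both groups, and the difference of -0.05 log2 (-0.93 to 0.83) was -0.51 log2 in replicate 1, -0.02 in replicate 2 and 0.39 in replicate 3.

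The cytoplasmic phosphatases of ERK differed little between treatments as well. DUSP6 (MKP-3), the classical feedback phosphatase that retains ERK in the cytoplasm, had 10.71, 11.28 and 11.66 on 208891_at in Bf 140 nM and 10.76, 11.24 and 11.98 in DMSO 0.6%. On 208892_s_at it had 9.87, 10.50 and 11.04 in Bf 140 nM and 10.11, 10.32 and 11.17 in DMSO 0.6%. On both of these, replicate 3 was highest and replicate 1 lowest in each group. The remaining DUSP6 probe set, 208893_s_at, had 10.09, 10.15 and 10.13 in Bf 140 nM and 10.29, 10.17 and 10.09 in DMSO 0.6%, a span without that order. The differences between treatments on the 3 probe sets were -0.11 log2 (-0.99 to 0.78), -0.06 log2 (-0.99 to 0.86) and -0.06 log2 (-0.27 to 0.16). DUSP7 (MKP-X), a close relative of DUSP6, had 8.64, 8.51 and 8.38 on 213848_at in Bf 140 nM and 8.41, 8.57 and 8.43 in DMSO 0.6%. Its other probe set, 214793_at, had 7.24, 7.11 and 7.07 in Bf 140 nM and 7.20, 7.24 and 6.93 in DMSO 0.6%. The DUSP7 differences were 0.04 log2 (-0.21 to 0.29) and 0.02 log2 (-0.26 to 0.29).

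Of the Sprouty genes, SPRY1 had 8.86, 10.00 and 8.51 in Bf 140 nM and 9.35, 9.89 and 8.32 in DMSO 0.6%. Replicate 2 was highest and replicate 3 lowest in both groups, and the treatment difference was -0.06 log2 (-1.32 to 1.19), the widest interval of the 17. SPRY2, the best studied Sprouty and a binding partner of the ubiquitin ligase CBL, had 10.47, 10.52 and 10.42 in Bf 140 nM and 10.42, 10.52 and 10.53 in DMSO 0.6%. These 6 values were almost level, and the difference was -0.02 log2 (-0.22 to 0.18). SPRY4 had 8.87, 9.07 and 8.64 in Bf 140 nM and 9.08, 9.0 and 8.28 in DMSO 0.6%. Replicate 3 was lowest in both groups, and the difference was 0.07 log2 (-0.50 to 0.65).

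SPRED2, which recruits the RAS inhibitor neurofibromin to the membrane in the manner of its relative SPRED1, had 10.92, 10.79 and 10.39 on 212458_at in Bf 140 nM and 10.88, 10.74 and 10.15 in DMSO 0.6%. The difference of 0.11 log2 (-0.45 to 0.67) was positive in each replicate number, at 0.04, 0.05 and 0.24 log2. This was the only 1 of the 17 with the same sign in all 3, while 11.8% of all probe sets were positive and 5.83% negative in all 3. On 212466_at SPRED2 had 8.0, 7.86 and 7.14 in Bf 140 nM and 8.25, 7.94 and 6.62 in DMSO 0.6%, with a difference of 0.07 log2 (-1.04 to 1.18) that was negative in 2 of the 3 replicate numbers. On 214026_s_at it had 6.09, 6.39 and 5.97 in Bf 140 nM and 6.16, 6.25 and 5.92 in DMSO 0.6%. That range overlaps the 5.65 to 6.24 of the TrpnX controls, which detect a bacterial gene, so this probe set cannot be told from background.

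How large a treatment effect these data could still hold depends on the replicate number. Without a block, the 95% confidence interval stayed within a 2-fold change in either direction for 12 of 17 probe sets and within a 1.5-fold change for 7. The 5 whose intervals reached past 2-fold were both DUSP1 probe sets, 204014_at of DUSP4, SPRY1 and 212466_at of SPRED2. With the replicate number as a block, all 17 intervals lay within a 1.5-fold change, and the median reach of an interval on either side fell to 0.20 log2, against 0.57 log2 without the block. In limma the variance of a probe set is drawn toward that of all probe sets, so these widths do not rest on its own spread alone. For DUSP5 the differences of -0.51 log2 in replicate 1 and 0.39 in replicate 3 lay outside its block interval of -0.34 to 0.24. Single differences lay outside the block interval on several other probe sets too, among them SPRY1, SPRY4 and 212466_at of SPRED2. Such an interval is for the mean over the replicate numbers, so single differences can lie outside it. Because their width draws on the variance of all probe sets, the block intervals do not by themselves exclude a larger effect on a single probe set. The smallest adjusted p with the block was 1.00 from limma.

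**Figure D2:**
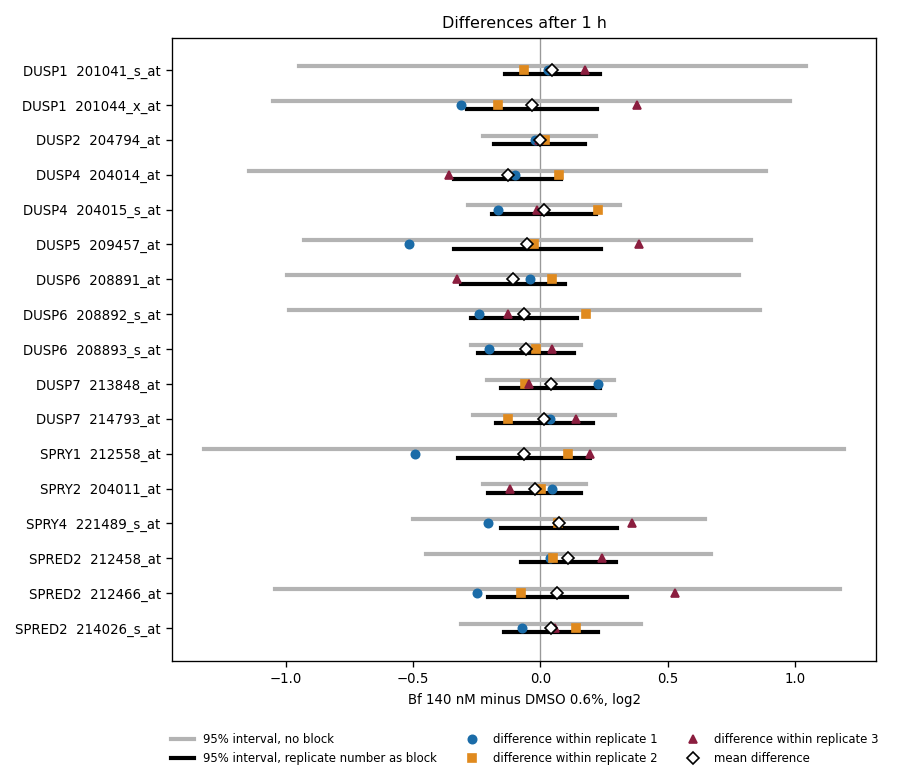
Bf 140 nM minus DMSO 0.6% on the log2 scale (horizontal axis) for the 17 probe sets (vertical axis). Open diamonds are mean differences over 3 arrays per group, grey and black bars are limma 95% confidence intervals without and with the replicate number as a block, and coloured symbols are differences within replicates 1, 2 and 3. All black bars cross 0 and lie within a 1.5-fold change.

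The median SD of the replicate number means was 0.33 log2 in the members, beside a median size of treatment difference of 0.05 log2. Over all probe sets these were 0.14 and 0.05 log2, so a spread above the treatment difference is not particular to the members. For these SDs and for the ranges below, the Bf 140 nM and DMSO 0.6% arrays of a replicate number were averaged. A limma F test on the single arrays compared the 3 numbers with treatment in the model. Of the 17 probe sets, 11 (64.7%) differed between replicate numbers at an adjusted p under 0.10, where 44.6% of all probe sets did. The share called depends on level. Among probe sets above the lower quartile of mean level it was 10 of 16 members (62.5%) against 54.5% of all, and among those above the median it was 8 of 13 (61.5%) against 63.0%, so above the median the members' share of calls was near the background. The 11 called belong to 7 genes, namely DUSP1, DUSP4, DUSP5, DUSP6, SPRY1, SPRY4 and SPRED2, and no probe set of DUSP2, DUSP7 or SPRY2 passed. The means of the replicate numbers differed by over 0.5 log2 on 10 of 17 probe sets (58.8%), against 24.1% of all probe sets, and by over 1 log2 on 7 (41.2%), against 5.5%. Both backgrounds include dim probe sets, whose spread was smaller, and a comparison at similar level is given below. Probe sets of 1 gene are not independent of each other. By the brightest probe set of each gene, 7 of 10 members passed, against 44.2% of all 11963 genes, a background that includes dim genes and is subject to the same dependence on level.

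SPRY1 differed most, by 1.53 log2 between its highest and lowest replicate number (adjusted p = 2.0e-05 from limma). DUSP4 differed by 1.25 log2 on 204014_at (adjusted p = 1.8e-05), DUSP1 by 1.23 and 1.18 log2 (adjusted p = 8.3e-06 and 0.00011), and DUSP6 by 1.08 and 1.12 log2 on 208891_at and 208892_s_at (adjusted p = 4.3e-05 and 3.9e-05). SPRED2 differed by 1.24 log2 on 212466_at (adjusted p = 9.1e-05), 0.63 on 212458_at (adjusted p = 0.00097) and 0.37 on 214026_s_at (adjusted p = 0.036). DUSP5 differed by 0.90 log2 (adjusted p = 0.0013) and SPRY4 by 0.58 (adjusted p = 0.0056). At the other end, SPRY2 and 208893_s_at of DUSP6 differed by 0.08 log2 each, DUSP7 by 0.14 and 0.22, DUSP2 by 0.15 and 204015_s_at of DUSP4 by 0.22, with adjusted p values from 0.23 to 0.83.

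The replicate numbers did not move the genes one way. The replicate 3 mean was below those of replicates 1 and 2 on 11 of 17 probe sets, among them both of DUSP1 and the single ones of DUSP5, SPRY1 and SPRY4, against 52.7% of all probe sets. It was above both on 4 (23.5%), against 30.9%, and these were 204014_at of DUSP4, 208891_at and 208892_s_at of DUSP6, and DUSP2, whose excess was small. The same replicate 3 arrays had the largest gap between the ends of the actin control, and BioC was lowest in replicate 1 and highest in replicate 3. That order was seen on 204014_at of DUSP4 and on 208891_at and 208892_s_at of DUSP6, but not on the other probe sets of these genes. The reverse order held on both DUSP1 probe sets, DUSP5, and 212458_at and 212466_at of SPRED2, among others. The part of the actin gap and of BioC in the spread was not tested. Without both replicate 3 arrays, replicates 1 and 2 still differed on 6 of 17 probe sets (35.3%), where 12.5% of all probe sets, dim ones included, did. These were DUSP1 at -0.67 and -0.36 log2 for replicate 2 minus replicate 1, DUSP4 at 0.58, DUSP6 at 0.53 and 0.42, and SPRY1 at 0.84. In this comparison of 4 arrays, chosen after seeing the data, their adjusted p values from limma ranged from 4.2e-13 to 0.011. With 2 arrays per replicate number, these p values rest mostly on the variance that limma shares over all probe sets. They say little about the replication of each probe set itself. The calls of DUSP5, SPRY4 and SPRED2 were lost there, with replicate 2 minus replicate 1 between -0.22 and 0.19 log2.

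Spread also varies with level, so each probe set was set beside the 500 probe sets nearest to it in mean level. The SD of the 3 replicate number means was at or above the 90th percentile of its neighbours for 8 of 17 probe sets. It was 0.77 log2 for SPRY1 (97.2nd percentile, neighbours' median 0.21 log2), 0.66 for 212466_at of SPRED2 (97.4th, median 0.14), and 0.62 and 0.61 for DUSP1 (93.8th and 96.2nd, medians 0.23 and 0.13). DUSP4 on 204014_at reached 0.62 log2 (95th percentile) and DUSP6 0.54 and 0.56 log2 (91.2nd and 90.8th). The eighth, 214026_s_at of SPRED2, had an SD of only 0.19 log2 (96.6th), at the background level noted above. DUSP5 was at the 88.6th percentile, 212458_at of SPRED2 at the 69.2nd, SPRY4 at the 66.4th and 214793_at of DUSP7 at the 55.0th. The 5 below the median of their neighbours were SPRY2 (2.2nd percentile), 208893_s_at of DUSP6 (2.4th), 213848_at of DUSP7 (16.0th), DUSP2 (20.0th) and 204015_s_at of DUSP4 (27.6th).

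**Figure D3:**
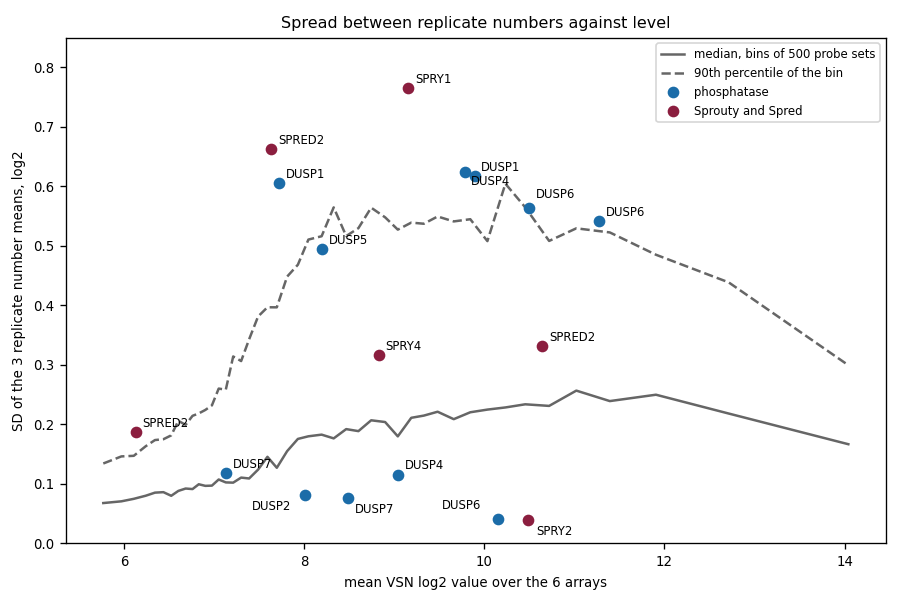
SD of the 3 replicate number means in log2 (vertical axis) against the mean VSN log2 value over the 6 arrays (horizontal axis) for the 17 probe sets, labelled by gene. The solid and dashed lines are the median and the 90th percentile in successive bins of 500 probe sets. SPRY1, DUSP1, DUSP4, DUSP6 and SPRED2 have points on or above the dashed line at 0.54 to 0.77 log2, as does the dimmest SPRED2 probe set at 0.19 log2, while SPRY2 and 1 probe set of DUSP6 lie near 0.04.

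Probe sets of the same gene did not always follow each other. Both DUSP1 probe sets were lower in replicate 3 than in replicate 1, by -1.23 and -1.18 log2. For DUSP6, replicate 3 minus replicate 1 was 1.08 and 1.12 log2 on 208891_at and 208892_s_at but -0.08 on 208893_s_at. For DUSP4 it was 1.25 log2 on 204014_at and 0.17 on 204015_s_at. The position of these probe sets along the transcript was not analysed here.

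The differences between treatments changed sign between replicate numbers. In replicate 1 the difference was positive for 5 of 17 probe sets, against 56% of all probe sets, with a median of -0.10 log2 in the members and 0.02 log2 overall. In replicate 2 it was positive for 10 of 17, against 48.4%, and in replicate 3 for 10 of 17, against 57.3%, with a replicate 3 median of 0.06 log2 in the members and 0.03 log2 overall. The difference was negative in replicate 1 and positive in replicate 3 for 7 of 17 probe sets (41.2%), against 31.1% of all probe sets, and the reverse held for 2, against 29.7%. The 7 included DUSP5 (-0.51 and 0.39 log2), SPRY1 (-0.49 and 0.20), SPRY4 (-0.21 and 0.36), 212466_at of SPRED2 (-0.25 and 0.53) and 201044_x_at of DUSP1 (-0.31 and 0.38). On the 10 probe sets where replicate 3 was the extreme number by a range over 0.5 log2, the DMSO 0.6% array lay farther from the other 4 arrays than the Bf 140 nM array on 10, against 73.6% of such probe sets overall. The actin gap was also larger on the DMSO 0.6% array of replicate 3, as given above, and its part in these differences was not tested.

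Upstream sequence is shown for DUSP1, DUSP6 and SPRY1, the genes whose replicate numbers differed in 3 different orders. The sequences are from RefSeq (GRCh38.p14), cover the 250 bases before the annotated start, and are written 5′ to 3′ on the strand of the gene. Capitals mark exact matches to any of these motifs, on either strand, and no 2 matches overlap. The motifs are the cyclic AMP response element TGACGTCA, the AP-1 element TGACTCA, the ETS sequence CCGGAA and the TATA sequence TATAAA.
DUSP1 (chr5:172771196-172771445, minus strand): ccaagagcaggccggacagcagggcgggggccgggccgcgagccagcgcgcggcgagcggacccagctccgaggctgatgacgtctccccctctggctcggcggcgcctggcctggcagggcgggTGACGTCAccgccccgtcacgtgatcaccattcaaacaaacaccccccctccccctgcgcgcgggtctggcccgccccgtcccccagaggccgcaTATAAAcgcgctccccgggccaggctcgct
DUSP6 (chr12:89352502-89352751, minus strand): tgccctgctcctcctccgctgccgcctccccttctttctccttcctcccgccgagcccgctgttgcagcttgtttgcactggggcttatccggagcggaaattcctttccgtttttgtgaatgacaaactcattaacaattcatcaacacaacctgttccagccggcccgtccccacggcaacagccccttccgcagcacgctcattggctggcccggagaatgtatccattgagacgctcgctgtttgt
SPRY1 (chr4:123398136-123398385, plus strand): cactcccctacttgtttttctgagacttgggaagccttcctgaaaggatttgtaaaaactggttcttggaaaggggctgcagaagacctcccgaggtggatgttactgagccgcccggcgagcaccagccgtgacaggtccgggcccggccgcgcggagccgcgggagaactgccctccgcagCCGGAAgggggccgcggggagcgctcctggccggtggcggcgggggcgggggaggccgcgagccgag
DUSP1 holds the cyclic AMP response element, beginning 125 bases before the start and found in 1.65% of 35116 such windows, and a TATA sequence 30 bases before it, found in 10.7%. SPRY1 holds the ETS sequence CCGGAA in this window of its 2, 67 bases before the start, found in 14.5% of windows. The DUSP6 window holds none of the 4 motifs in exactly these letters, and shorter or variant forms, such as GGAA alone, were not searched. The AP-1 element, found in 4.2% of windows, was in none of the 12 windows of the 8 member genes searched. DUSP4 and DUSP5 were not searched. A match is a description of the letters and not a binding site.

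Other genes of the pathway were examined by the brightest probe set of each gene, in 7 lists of which 70 of 89 genes were measured. By limma 0 were higher and 0 were lower in Bf 140 nM at an adjusted p under 0.10, with or without the block. The median difference lay between -0.02 and 0.02 log2 in each list, against 0.01 log2 over all genes. Among 6 other dual-specificity phosphatases and Sprouty relatives, DUSP3 differed by 0.09 log2 (-0.12 to 0.31) and DUSP10, a phosphatase of p38 and JNK, by 0.03 (-0.90 to 0.96). The replicate numbers of DUSP10 differed by 1.11 log2. Of 10 other inhibitors, the RAS GTPase-activating gene RASA2 differed by 0.12 log2 (-0.18 to 0.42) and the ubiquitin ligase gene CBL by 0.09 (-0.28 to 0.46). Of 10 adaptors between receptors and RAS, FRS3 differed by 0.08 log2 (-0.41 to 0.57) and SOS1, an exchange factor of RAS, by -0.07 (-0.62 to 0.49). In the RAS to ERK core of 9 genes, the RAF activator SHOC2 differed by 0.13 log2 (-0.47 to 0.73) and HRAS by 0.05 (-0.18 to 0.28). MAP2K5, the kinase above ERK5, differed by -0.13 log2 (-0.68 to 0.41) among 10 genes of the p38, JNK and ERK5 kinases, and RPS6KA4 by 0.06 (-0.14 to 0.26) among 7 kinases downstream of ERK.

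The list of ERK-responsive transcription factors and targets gave 0 calls among 18 genes. ETV5, an ETS factor induced by ERK, had a mean of 10.15 in Bf 140 nM and 9.91 in DMSO 0.6%, a difference of 0.23 log2 (-0.05 to 0.52) with an adjusted p = 1.00 from limma. It was positive in all 3 replicate numbers, at 0.31, 0.20 and 0.19 log2, and its interval with the block was 0.05 to 0.41 log2. JUNB, a subunit of AP-1, averaged 8.69 in Bf 140 nM and 9.09 in DMSO 0.6%, a difference of -0.40 log2 (-1.41 to 0.61). It was -0.99 log2 in replicate 3 and -0.15 and -0.06 in the others, with an interval of -0.72 to -0.08 log2 under the block. The replicate 3 difference of JUNB lay outside that interval, which is for the mean difference. Its width draws on the variance of all probe sets and not on JUNB alone. With the block, 3 of the 18 had an unadjusted limma p under 0.05, against 1.22% of all probe sets, and each adjusted p was 1.00. ETV5 and JUNB were among the 3, and the other was not among the genes named here, which were chosen by p without the block. Differences in the list ranged from -0.40 to 0.26 log2, so the largest rise was in a gene not named here. The ETS factors ELK1 and ELK3 differed by 0.08 log2 (-0.18 to 0.35) and -0.16 log2 (-0.80 to 0.48). Between replicate numbers, 13 of the 18 targets, 6 of the 7 kinases downstream of ERK, 7 of the 10 adaptors, 7 of the 10 p38, JNK and ERK5 kinases, 5 of the 9 core genes, 4 of the 10 other inhibitors and 3 of the 6 phosphatase and Sprouty relatives differed at an adjusted p under 0.10, against 44.2% of all genes. The median SD of the replicate number means was 0.41 log2 in the 10 member genes, between 0.12 and 0.28 log2 in the 7 lists, and 0.14 log2 over all genes. These medians are not matched for level.

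SPRY1 had the largest SD of the 17 probe sets over the 6 arrays. The genes with the pattern most like it were MYL4, TNS1 and PILRA, with Pearson correlations of 0.9995, 0.997 and 0.996 over 6 arrays. Their own SD over the arrays was 0.16, 0.32 and 0.10 log2. A correlation above 0.95 was reached by 235 of 19064 named probe sets, and the 6 points share 3 replicate numbers.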

How the data were processed

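Total RNA of 6 samples was labelled and hybridized to Affymetrix GeneChip arrays. The authors took cell intensities from GCOS, applied VSN in R 2.5.0 and deposited the resulting log2 values. That the logarithm has base 2 follows from VSN itself and from how far the values reach. The summary from probes to probe sets is not stated, and no filter on Present calls was made here. Fits used limma 3.58.1 in R 4.3.3 on 22215 probe sets after removal of 62 controls, without a filter. GEO's platform annotation gave 1 symbol to 19064 probe sets, several to 1043 and none to 2108, and 0 member symbols needed an update against GRCh38.p14. The number of arrays limits the precision.

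The replicate numbers pair the samples by the values. After subtraction of the group means, arrays 1, 2 and 3 of the groups correlated with their own number at 0.72, 0.78 and 0.88, although the sources name no shared day. The labels call the replicates biological. The sample descriptions also carry a number that is shared by both groups within a replicate number and differs between replicate numbers. The methods name no pairing, so the fit without the block was kept as the main fit, with the block as an alternative. The fit without the block carries the spread between replicate numbers in its error. If the shared numbers mark matched experiments, the block is the closer fit to the design. SAM, the test of the methods, was not run here. Members, lists and the rule for named genes (all members, up to 4 genes of smallest p per list, and the 3 genes most like the most variable member) were chosen with earlier results of these data known. Scripts were tested on simulated data. Alternatives were a replicate block, equal array medians or quantile normalization, low-value filters (median or lower quartile), trend and robust eBayes, array weights, each array left out, both replicate 3 arrays left out, other thresholds (0.05 and 0.2) and 200 neighbours.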

Additional observations from a re-analysis of the deposited data

How the results depend on the processing

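The count of members called between Bf 140 nM and DMSO 0.6% was 0 under every alternative run, including the replicate block, adjusted p thresholds of 0.05 and 0.2, and each array left out. For the 70 pathway genes it was 0 as well under the alternatives run for them, which did not include other thresholds. The paired analysis with the replicate number as a block changed no call. The filter at the median kept 13 of the 17 probe sets and that at the lower quartile 16. The median difference of the members, -0.00 log2 over all arrays, lay between -0.0807 and 0.11 log2 when single arrays were left out, with 0.11 without the Bf 140 nM array of replicate 3. Those fits had no block, so the spread between replicate numbers enters these medians too.

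The sign of many differences changed with the setting. Leaving out both replicate 3 arrays, with or without the replicate block, gave -0.0165 log2 for 201041_s_at of DUSP1, 0.0023 for 208891_at of DUSP6, -0.0450 for 214793_at of DUSP7, 0.0251 for SPRY2, -0.0691 for SPRY4 and -0.16 for 212466_at of SPRED2, each of the opposite sign. Array weights did so for DUSP2 (0.0572), 208892_s_at of DUSP6 (0.0382), DUSP7 (-0.0086 and -0.0756), SPRY4 (-0.0564) and SPRED2 (-0.14 on 212466_at and -0.0072 on 214026_s_at). Equal array medians did so for 204015_s_at of DUSP4 (-0.0041) and 214793_at of DUSP7 (-0.0031), and quantile normalization for that DUSP7 probe set (-0.0106). The causes were not tested. The fits with 1 array left out had no replicate block and left the replicate numbers unbalanced between the groups. The spread between replicate numbers then enters the treatment difference, so their changes of sign do not measure how steady that difference is. For 201041_s_at of DUSP1, for example, the differences within replicates 1, 2 and 3 were 0.03, -0.06 and 0.17 log2. With 1 array left out, differences that took the opposite sign ranged from -0.28 to 0.37 for 201041_s_at of DUSP1, -0.47 to 0.29 for 201044_x_at of DUSP1, -0.0553 to 0.0387 for 204794_at of DUSP2, -0.44 to 0.25 for 204014_at of DUSP4, -0.0827 to 0.12 for 204015_s_at of DUSP4, -0.44 to 0.23 for 209457_at of DUSP5, -0.39 to 0.22 for 208891_at of DUSP6, -0.35 to 0.25 for 208892_s_at of DUSP6, -0.0247 to 0.11 for 213848_at of DUSP7, -0.0807 to 0.0739 for 214793_at of DUSP7, -0.11 to 0.26 for 212458_at of SPRED2, -0.43 to 0.39 for 212466_at of SPRED2, -0.0767 to 0.13 for 214026_s_at of SPRED2, -0.50 to 0.29 for 212558_at of SPRY1, -0.0577 to 0.0036 for 204011_at of SPRY2 and -0.18 to 0.22 for 221489_s_at of SPRY4.

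The count of members that differed between replicate numbers was 11, and 8 to 13 under the other alternatives, with 10 or 11 when single arrays were left out. Its excess over all probe sets shrank or was lost under filtering, with 8 of 13 members (61.5%) against 63.0% at the median filter and 10 of 16 (62.5%) against 54.5% at the lower quartile, while it was 64.7% against 44.6% without a filter. It was 6 without both replicate 3 arrays, a setting of 4 arrays chosen after seeing the data. The count with a spread at or above the 90th percentile of neighbours stayed within 1.5 times under each alternative. Depth does not apply to arrays, and 214026_s_at of SPRED2 was at background.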
